A study of Mus musculus with 16 samples.

Results

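The tumour suppressor p53 and 9 of its best known transcriptional targets were followed in mouse mIMCD3 cells treated with doxycycline (DOX). The 10 genes were *Trp53*, which encodes p53 itself, *Mdm2*, *Cdkn1a*, *Ccng1*, *Trp53inp1*, *Sesn1*, *Phlda3*, *Zmat3*, *Aen* and *Plk2*. They were picked by symbol and matched by Ensembl identifier, and all 10 were present among the 54393 genes of the count table and the 53354 genes of the TPM table. The cells are an epithelial line from the renal inner medulla of a mouse transgenic for simian virus SV40, recorded as wild type in genotype. They were cultured on permeable filters for 10 days and then received 2 µg/mL DOX, a tetracycline antibiotic, or its vehicle DMSO for 3 or 6 days, with fresh medium each day. The 4 groups (DMSO and DOX at 3 days, DMSO and DOX at 6 days) held 4 replicate libraries each, 16 in all, made from polyadenylated RNA. All 16 libraries come from the same immortalized line, so no group offers cells without the SV40 transgene. RNA of the SV40 T antigen was not analysed here.

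The p53 protein is kept scarce in resting cells because MDM2 ubiquitinates it and sends it to the proteasome, and it accumulates mainly by becoming more stable when DNA or ribosomes are damaged. Active p53 binds DNA as a tetramer and raises transcription of genes for cell cycle arrest, DNA repair, metabolism and cell death, *Mdm2* among them, which closes a negative feedback loop. The SV40 large T antigen binds p53 and blocks its activity as a transcription factor, while the bound p53 protein is stabilized. Abundance of *Trp53* mRNA is therefore no measure of p53 activity, and the p53 protein was not measured in these libraries.

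*Trp53* (ENSMUSG00000059552) lay on chromosome 11 from 69580359 to 69591873 on the plus strand of GRCm38 in the GENCODE annotation, and *Mdm2* (ENSMUSG00000020184) lay on chromosome 10 from 117688875 to 117710758 on the minus strand. *Cdkn1a* (ENSMUSG00000023067) lay on chromosome 17 from 29090976 to 29100727 on the plus strand, and a gene to be experimentally tested, AC167363.2, overlaps it on the opposite strand. *Ccng1* (ENSMUSG00000020326) lay on chromosome 11 from 40748552 to 40755311 on the minus strand, and *Plk2* (ENSMUSG00000021701) lay on chromosome 13 from 110395046 to 110400844 on the plus strand. *Trp53inp1* (ENSMUSG00000028211) lay on chromosome 4 from 11156431 to 11174379 on the plus strand. *Sesn1* (ENSMUSG00000038332) lay on chromosome 10 from 41809935 to 41908424 on the plus strand, where 9930024M15Rik overlaps it on the same strand, so that reads of this pair are uncertain. *Phlda3* (ENSMUSG00000041801) lay on chromosome 1 from 135766119 to 135769136 on the plus strand, and *Zmat3* (ENSMUSG00000027663) lay on chromosome 3 from 32334792 to 32366014 on the minus strand. *Aen* (ENSMUSG00000030609) lay on chromosome 7 from 78895854 to 78911209 on the plus strand. All 10 are protein-coding, and the values below are sums over the whole gene.

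The p53 response element is built from adjacent copies of a decamer, the p53 consensus decamer, which reads alike on both strands. RefSeq promoter windows of GRCm38.p6, reaching from 250 bases before to 50 bases after a transcription start, were searched for it. Windows were present for 8 of the 10 genes, and *Trp53inp1* and *Zmat3* are named only. Of these 8 genes, 6 (75.0%) held an exact decamer in at least 1 window, against 9.55% of the 27025 genes in the table. *Phlda3* and *Plk2* had none in these windows. An adjacent pair of decamers with at most 1 mismatch in all was present in *Cdkn1a* and *Ccng1*, 25.0% of the 8 genes and 0.107% of all genes. Many known p53 elements lie in introns or farther upstream, outside such windows. The sequences of *Cdkn1a*, *Ccng1* and *Mdm2* are shown because these promoters carry the matches of the arrest genes and of the feedback gene, and a short stretch of *Aen* because its transcript gave the smallest adjusted p of the 10 genes. Each runs 5′ to 3′ on the strand of its gene, and the capitals mark a decamer or a pair, where each pair holds 1 base that does not match.
Cdkn1a, chr17:29090729-29090978, plus strand: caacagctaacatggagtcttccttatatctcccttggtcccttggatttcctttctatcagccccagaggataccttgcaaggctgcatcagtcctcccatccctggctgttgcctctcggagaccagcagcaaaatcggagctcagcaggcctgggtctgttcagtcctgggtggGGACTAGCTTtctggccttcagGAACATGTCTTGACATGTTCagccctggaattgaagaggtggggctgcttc
Ccng1, chr11:40755287-40755536, minus strand: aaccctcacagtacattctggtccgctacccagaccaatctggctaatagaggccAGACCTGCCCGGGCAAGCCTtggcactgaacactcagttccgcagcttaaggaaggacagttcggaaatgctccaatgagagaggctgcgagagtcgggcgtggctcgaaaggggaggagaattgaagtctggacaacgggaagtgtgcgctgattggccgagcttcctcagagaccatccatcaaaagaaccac
Mdm2, chr10:117710759-117711008, minus strand: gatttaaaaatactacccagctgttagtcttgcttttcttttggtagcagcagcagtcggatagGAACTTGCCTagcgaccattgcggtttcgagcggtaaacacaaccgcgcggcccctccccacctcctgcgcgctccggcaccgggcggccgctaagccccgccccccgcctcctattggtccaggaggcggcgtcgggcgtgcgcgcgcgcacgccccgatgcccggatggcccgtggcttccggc
Aen, chr7:78895927.0-78895956.0, plus strand: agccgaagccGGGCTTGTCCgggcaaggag

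The pair in *Cdkn1a* began 51 bases upstream of the transcription start of that window, and the window of its other annotated start held no decamer. In *Ccng1* the pair began 195 bases upstream, and in *Mdm2* the single decamer began 186 bases upstream. The decamer of *Aen* began 10 bases downstream of its first annotated start and 121 bases upstream of its other start. *Trp53* held a decamer 75 bases upstream. Gene-level values cannot separate the starts of *Cdkn1a* or *Aen*. The matches are a description of the letters, and occupancy by p53 was not measured.

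The level per transcript length was read as TPM (transcripts scaled to a common total), which the authors deposited. In the 8 DMSO libraries *Cdkn1a*, which encodes the cyclin-dependent kinase inhibitor p21, was the highest of the 10 at 160 ± 15.9 TPM (SD, n = 8) and ranked 760 among 53354 genes. *Trp53* followed at 96.0 ± 8.70 TPM. *Plk2*, *Mdm2*, *Ccng1* and *Phlda3* had 81.2 ± 11.1, 76.2 ± 5.32, 59.4 ± 6.77 and 56.0 ± 6.98 TPM. *Aen* was lower at 19.4 ± 2.18 TPM, ahead of *Trp53inp1* at 5.90 ± 1.2, *Zmat3* at 5.43 ± 0.511 and *Sesn1* at 3.37 ± 0.465 TPM. The range of the DMSO libraries of *Cdkn1a*, 134 to 186 TPM, lay above that of *Trp53*, 77.5 to 104 TPM. From *Trp53* down to *Phlda3*, each gene's DMSO range overlapped that of the next, so that the order of adjacent genes there is not fixed beyond their spread. *Trp53* still lay wholly above *Ccng1* and *Phlda3*, at 51 to 70.7 and 42.8 to 67.6 TPM. The ranges of *Trp53inp1* and *Zmat3* also overlapped, whereas *Zmat3* and *Sesn1* had separate ranges, 4.65 to 6.07 and 2.77 to 4.24 TPM. *Sesn1* had the fewest reads, with 140 to 219 counts per library, and *Ccng1* reached 5573 counts.

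**Figure D1:**
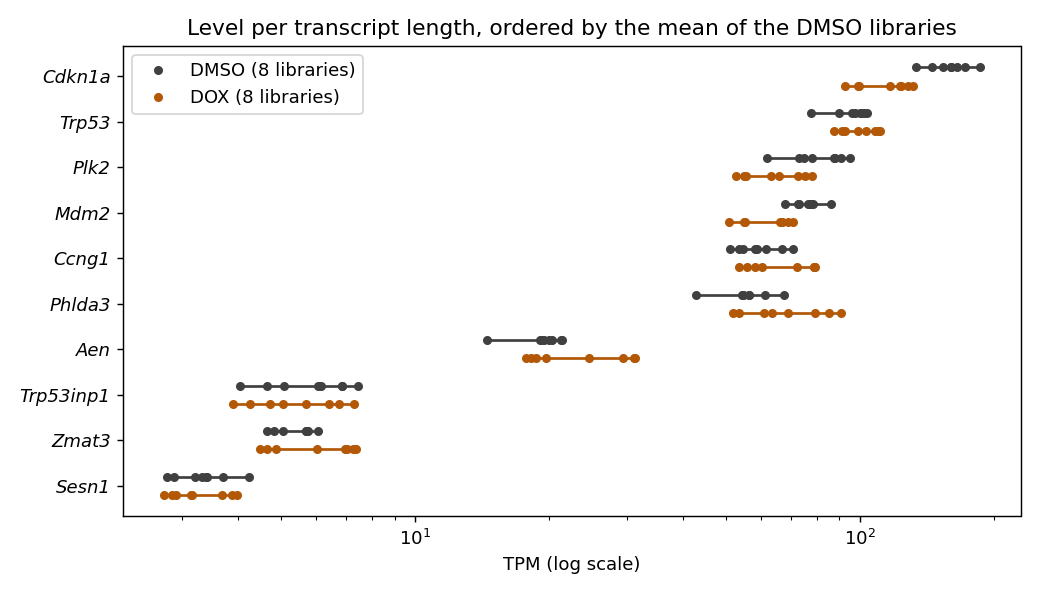
Level of each of the 10 genes in TPM (x axis, log scale), with a point for each DMSO (grey) or DOX (orange) library and a line from the lowest to the highest. *Cdkn1a* lay from 134 to 186 TPM in DMSO and from 92.6 to 132 TPM in DOX, and the other genes spread down to *Sesn1*, whose lowest library had 2.73 TPM.

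Total estimated counts ran from 16933343 to 23960860 per library, and 0 pairs of libraries were identical. Replicates of a group correlated at r = 0.981 to 0.992 in log2 CPM (counts per 1e6 counts, TMM-scaled) across the 13234 tested genes, a correlation across genes, which are no replicates. The labels number the replicates without saying whether they were separate cultures, so the p-values measure the spread between these libraries, which may be technical. The line was checked against markers in TPM. The summed level of 7 renal epithelial markers ran from 2230 to 2480 in DMSO and from 1640 to 1960 in DOX at 3 days, and from 2430 to 2710 and 1690 to 1890 at 6 days. Its largest parts were *Krt18* and *Krt8*, with means of 869 and 605 TPM in DMSO at 3 days. From counts, 2 of the 7 were called lower at 3 days and 3 at 6 days, where 7.22% and 11.6% of all tested genes were. Sums of 5 fibroblast markers reached at most 1.11 and of 5 endothelial markers at most 1.46 TPM. Among 5 leukocyte and macrophage markers *Ptprc*, *Adgre1* and *Itgam* reached at most 0.381, 0.0200 and 0.0680 TPM, while the list's sum ran from 24.8 to 32.6 in DMSO and 10.8 to 16.6 in DOX at 3 days, and 28.4 to 31.6 and 15.3 to 16.6 at 6 days, carried by *Cd68* and *Csf1r*. The part of these marker levels in the results on p53 targets was not tested. In bulk RNA, fewer cells with a transcript and less of it per cell cannot be told apart.

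DOX was compared with DMSO at each time by edgeR's glmTreat, which asks whether a change exceeds 1.2-fold, with adjusted p under 0.05 as the criterion for a call. The comparison addressed whether the inducer used in tetracycline-controlled expression systems alters these transcripts by itself. Of the 10 genes, 4 were called at 6 days. *Phlda3*, *Zmat3* and *Aen* were higher in DOX-treated cells, by 1.46-, 1.35- and 1.45-fold, and *Cdkn1a* was lower, at 0.758 of the DMSO level. This is 4 of 10 where 21.6% of the 13234 tested genes were called, 10.0% higher and 11.6% lower. At 3 days 0 of the 10 were called by glmTreat, where 12.5% of all tested genes were called (5.30% higher and 7.22% lower), and *Cdkn1a* was the only member with an unadjusted p under 0.05. DESeq2 and limma on log2(TPM + 1) also called 0 at 3 days. The median log2 fold change of the 10 genes was 0.05 at 3 days and 0.18 at 6 days, against 0.0031 and -6e-04 over all tested genes. In CPM all 4 DOX libraries lay above all 4 DMSO libraries for 3 genes at 3 days, *Trp53*, *Ccng1* and *Phlda3*, and below them for *Mdm2*, *Cdkn1a* and *Plk2*. Among all tested genes 38.6% were separated at 3 days, 18.8% upward and 19.8% downward. At 6 days it was found upward for 5 members, the same 3 with *Zmat3* and *Aen*, and downward for the same 3 genes as at 3 days, where 43.0% of all tested genes were separated, 22.1% upward and 20.9% downward.

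**Figure D2:**
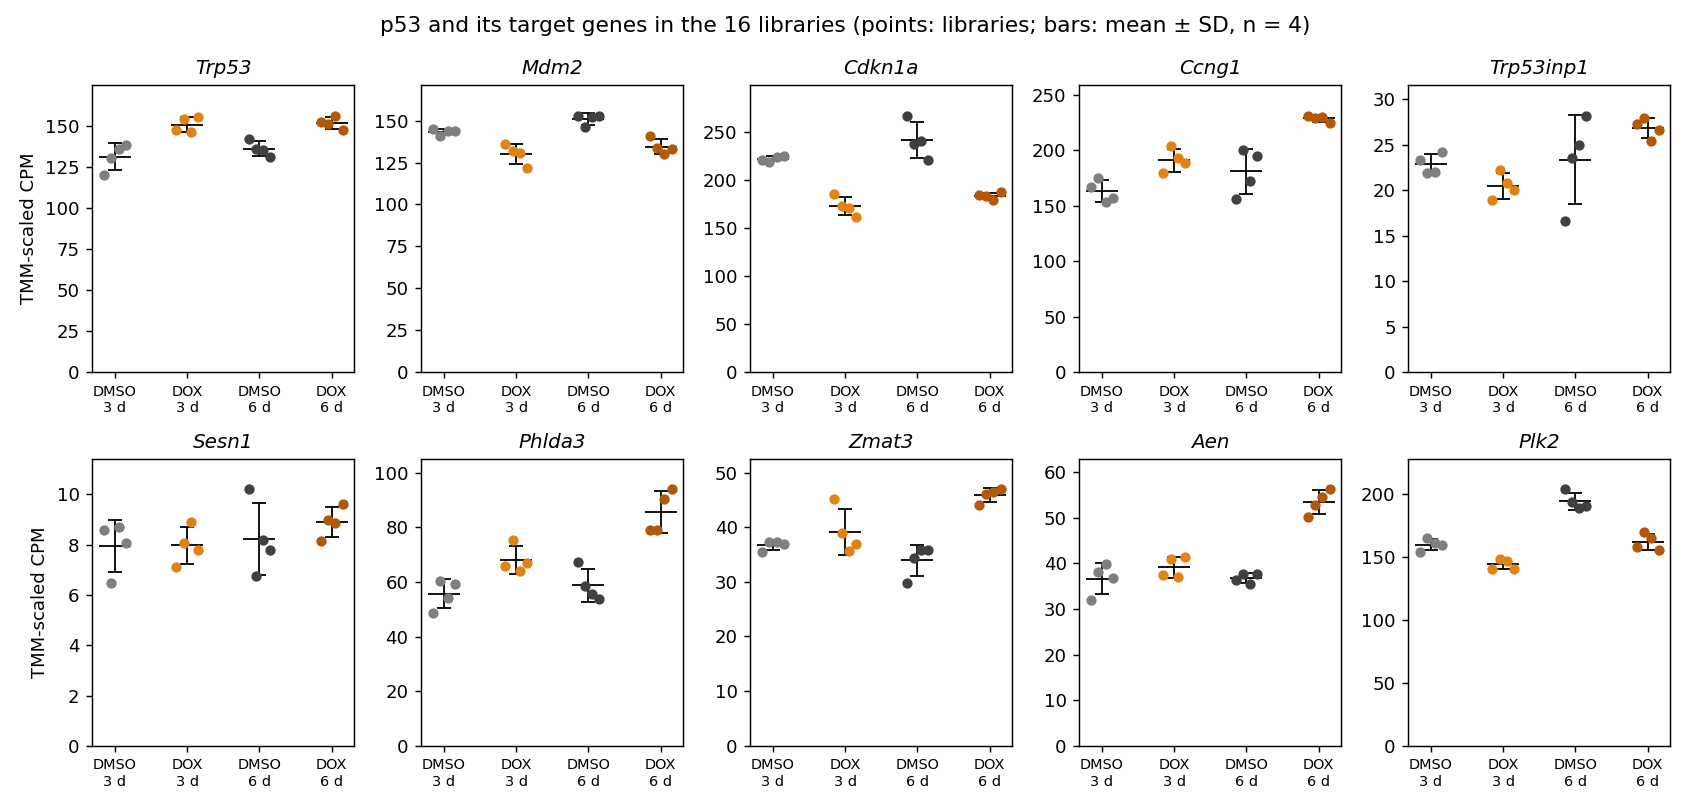
TMM-scaled CPM (y axis, from 0) of the 10 genes in the 16 libraries, a point for each library and bars for the mean ± SD of 4. At 6 days the 4 DOX libraries of *Aen*, *Zmat3*, *Phlda3*, *Ccng1* and *Trp53* lay above the DMSO libraries. Those of *Cdkn1a*, *Mdm2* and *Plk2* lay below the DMSO libraries of the same time at both times.

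*Trp53*, the gene of p53 itself, had 120, 130, 136 and 138 CPM in the DMSO libraries and 147, 154, 146 and 155 CPM in the DOX libraries at 3 days. At 6 days the libraries had 142, 136, 135 and 131 CPM in DMSO and 152, 151, 156 and 147 CPM in DOX. The DOX libraries were above the DMSO libraries at both times in CPM, by a small margin. The log2 fold changes were 0.20 (SE 0.0508) and 0.16 (SE 0.0507), under the 1.2-fold limit, and *Trp53* was not called (edgeR, adjusted p = 1 at both times). *Mdm2*, the ubiquitin ligase of p53 and itself a p53 target, had 145, 141, 144 and 144 CPM in DMSO and 136, 132, 131 and 122 CPM in DOX at 3 days. At 6 days it had 153, 146, 152 and 153 CPM in DMSO and 141, 134, 130 and 133 CPM in DOX. In CPM the sides were thus opposite to those of *Trp53*, with every DOX library of *Mdm2* below every DMSO library of its time. Its log2 fold changes, -0.14 (SE 0.0471) and -0.17 (SE 0.0470), were not called (edgeR, adjusted p = 1 at both times). Without the fold threshold both genes passed at both times, as did 5982 of the 13234 genes at 3 days and 6702 at 6 days.

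*Cdkn1a*, whose product p21 halts the cycle by inhibiting cyclin-dependent kinases, had 221, 219, 224 and 225 CPM in DMSO and 185, 173, 171 and 162 CPM in DOX at 3 days. At 6 days the DMSO libraries had 267, 238, 241 and 221 CPM and the DOX libraries 184, 183, 179 and 187 CPM. The highest DOX library stayed below the lowest DMSO library at both times. The fall at 6 days, -0.40 in log2 (SE 0.0555), was called (edgeR, adjusted p = 0.0152), and the value at 3 days, -0.36 (SE 0.0557), was not (edgeR, adjusted p = 0.0833). The test of the difference between the times, -0.04 in log2 (SE 0.0785), gave an adjusted p of 0.781 (edgeR). *Cdkn1a* was not called at 6 days by DESeq2 (adjusted p = 0.0608), with no filter beyond 1 count (edgeR, adjusted p = 0.171) or without the DMSO library of replicate 1 at 6 days, its highest (edgeR, adjusted p = 0.0594). It was called at 3 days without the DOX library of replicate 1 (edgeR, adjusted p = 0.0209), without that DMSO library (0.0447) and with an offset for transcript length and GC content (0.0342).

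*Ccng1*, which encodes cyclin G1, a partner of protein phosphatase 2A that acts on MDM2, had 167, 175, 153 and 157 CPM in DMSO and 179, 204, 193 and 188 CPM in DOX at 3 days. At 6 days it had 156, 200, 172 and 195 CPM in DMSO and 231, 229, 230 and 224 CPM in DOX. The DMSO libraries at 6 days were spread more widely than the DOX libraries, and the groups did not overlap. The log2 fold changes of *Ccng1* were 0.23 (SE 0.0681) and 0.34 (SE 0.0678) and were not called (edgeR, adjusted p = 0.893 and 0.162). With the offset for length and GC the value at 6 days was 0.42 and was called (edgeR, adjusted p = 0.0159). *Plk2*, a polo-like kinase that p53 induces and that acts on centrioles, ran from 154 to 165 CPM in DMSO and 141 to 149 CPM in DOX at 3 days, and from 189 to 204 and 156 to 170 CPM at 6 days. DOX libraries were the lower at both times, and the log2 fold changes of -0.15 (SE 0.0479) and -0.26 (SE 0.0476) were not called (edgeR, adjusted p = 1 and 0.606).

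*Phlda3* encodes a pleckstrin homology protein that competes with AKT for membrane lipids. It had 48.7, 60.3, 54.3 and 59.3 CPM in DMSO and 65.7, 75.5, 63.9 and 67.0 CPM in DOX at 3 days. At 6 days it had 67.3, 58.5, 55.7 and 53.6 CPM in DMSO and 78.9, 79.2, 90.3 and 93.9 CPM in DOX. The groups were apart at both times in CPM, with a wider gap at 6 days. In TPM they overlapped at 3 days, with 42.8 to 61.1 in DMSO and 51.8 to 63.6 in DOX. The rise of 0.54 in log2 at 6 days (SE 0.0817) was called (edgeR, adjusted p = 0.00207), and 0.29 at 3 days (SE 0.0824) was not (edgeR, adjusted p = 0.531). The difference between the times, 0.25 in log2, was not called (edgeR, adjusted p = 0.132).

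*Aen* encodes an exonuclease that p53 induces during apoptosis. Its libraries had 31.9, 38.1, 39.8 and 36.7 CPM in DMSO and 37.5, 41.0, 36.9 and 41.3 CPM in DOX at 3 days, and these overlapped. At 6 days the DMSO libraries had 36.4, 37.6, 35.4 and 37.6 CPM, while the DOX libraries had 50.1, 52.8, 54.6 and 56.2 CPM. All 4 DOX libraries at 6 days exceeded the other 12 libraries. The log2 fold changes were 0.10 (SE 0.0667, adjusted p = 1) and 0.54 (SE 0.0657, adjusted p = 0.00039) by edgeR. *Zmat3*, also called Wig1, encodes an RNA-binding zinc finger protein. It had 35.5, 37.2, 37.2 and 36.9 CPM in DMSO and 45.2, 38.9, 35.6 and 37.0 CPM in DOX at 3 days, so that the groups overlapped, with the DOX libraries of 45.2 and 38.9 CPM above every DMSO library. At 6 days it had 29.8, 34.4, 35.8 and 35.8 CPM in DMSO and 44.1, 46.1, 46.4 and 46.9 CPM in DOX, with a clear gap. The log2 fold changes were 0.09 (SE 0.0711, adjusted p = 1) and 0.43 (SE 0.0708, adjusted p = 0.0174) by edgeR. The call of *Zmat3* at 6 days was lost in DESeq2 (adjusted p = 0.147) and without the DMSO library of replicate 1 at 6 days, its lowest (edgeR, adjusted p = 0.0637).

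*Trp53inp1*, whose nuclear product assists p53 phosphorylation and cell death, ran from 21.9 to 24.2 CPM in DMSO and 18.9 to 22.2 CPM in DOX at 3 days. At 6 days its DMSO libraries were scattered from 16.6 to 28.2 CPM around DOX libraries of 25.4 to 28.0 CPM. The log2 fold changes of -0.16 (SE 0.106) and 0.20 (SE 0.103) were not called (edgeR, adjusted p = 1 and 0.875). *Sesn1* encodes sestrin 1, which restrains mTORC1 signalling and responds to oxidants. It had 7.96 ± 1.02 CPM in DMSO and 7.97 ± 0.737 in DOX at 3 days, and 8.23 ± 1.43 and 8.90 ± 0.607 CPM at 6 days (SD, n = 4). All 4 groups of *Sesn1* overlapped, and the log2 fold changes of 0.01 (SE 0.120) and 0.12 (SE 0.118) were not called (edgeR, adjusted p = 1 at both times).

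**Figure D3:**
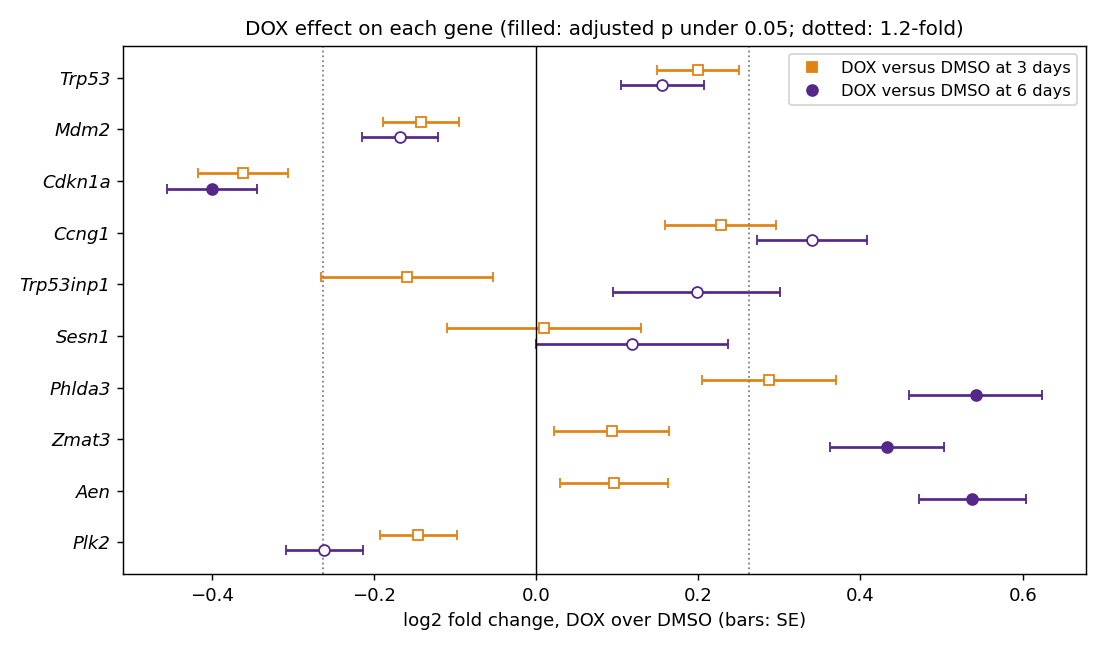
Log2 fold change of DOX over DMSO (x axis) with its SE for each gene at 3 days (squares) and 6 days (circles), filled where called, with dotted lines at 1.2-fold. *Cdkn1a*, *Mdm2* and *Plk2* lay to the left of 0 at both times, while *Phlda3*, *Zmat3* and *Aen* were filled on the right at 6 days.

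Whether the DOX effect itself changed with time was tested by the difference of the log2 fold changes, 6 minus 3 days, without a fold threshold. It was called for *Aen*, 0.44 (SE 0.0936, adjusted p = 0.00414), and *Zmat3*, 0.34 (SE 0.1, adjusted p = 0.0248), by edgeR's quasi-likelihood test. These are 2 of the 10 genes, where 17.0% of all tested genes were called, 7.44% upward and 9.58% downward. *Trp53*, *Mdm2* and *Cdkn1a* gave adjusted p of 0.721, 0.831 and 0.781. With a 1.2-fold threshold on the difference neither gene was called (edgeR, adjusted p = 0.185 for *Aen* and 0.536 for *Zmat3*), and *Zmat3* was also lost under the length and GC offset, at 0.19 (adjusted p = 0.0829). Under that offset 3 of the 10 were called upward, *Aen* among them (edgeR, adjusted p = 0.0118), where 887 of the 13234 tested genes were.

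In cells given DMSO, 6 days was compared with 3 days as a check of time in culture. edgeR's glmTreat called 0 of the 10 genes and 0% of all tested genes, and 0 of the 10 had an unadjusted p under 0.05. DESeq2 and limma also called 0. *Plk2* stood nearest to the limit, from 160 ± 4.50 to 194 ± 6.65 CPM (SD, n = 4), a log2 difference of 0.28 (SE 0.0477, adjusted p = 1). It was the 1 member that passed without the threshold, where 62 of the 13234 tested genes did, 43 upward and 19 downward. The 4 libraries at 6 days lay above those at 3 days for *Plk2* and *Mdm2*, where 12.2% of all tested genes were separated, 6.85% upward and 5.39% downward.

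TPM gave another scaling. On log2(TPM + 1), the median difference of all 13739 genes over the filter was -0.15 at 3 days and -0.06 at 6 days, and of the genes limma called 12.4% and 27.9% were higher in DOX, against 42.3% and 46.4% of those called from counts. *Cdkn1a* differed by -0.53 at 3 days and -0.43 at 6 days on this scale, and its DOX libraries, at 92.6 to 124 and 117 to 132 TPM, stayed below the DMSO libraries, at 134 to 165 and 160 to 186 TPM. *Aen*, *Phlda3* and *Zmat3* differed at 6 days by 0.51, 0.47 and 0.34, with 24.6 to 31.3 TPM in DOX and 19.1 to 21.3 TPM in DMSO for *Aen*. The directions of the 4 genes called at 6 days were thus the same on both scales, but limma called 0 of the 10 there, and 3 had an unadjusted p under 0.05. *Trp53* differed by 0.03 and 0.10, and its groups, apart in CPM, overlapped in TPM at both times. They had 77.5 to 104 TPM in DMSO and 87.4 to 103 in DOX at 3 days. At 6 days they had 95.9 to 102 and 99.3 to 111 TPM. The groups of *Ccng1*, *Phlda3* and *Plk2* also overlapped in TPM at 3 days, while those of *Mdm2* stayed apart at both times. At 3 days *Zmat3* and *Sesn1* lay on the other side of 0 in TPM, at -0.09 and -0.12, and relative to the median of all genes on that scale they stood above it.

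**Figure D4:**
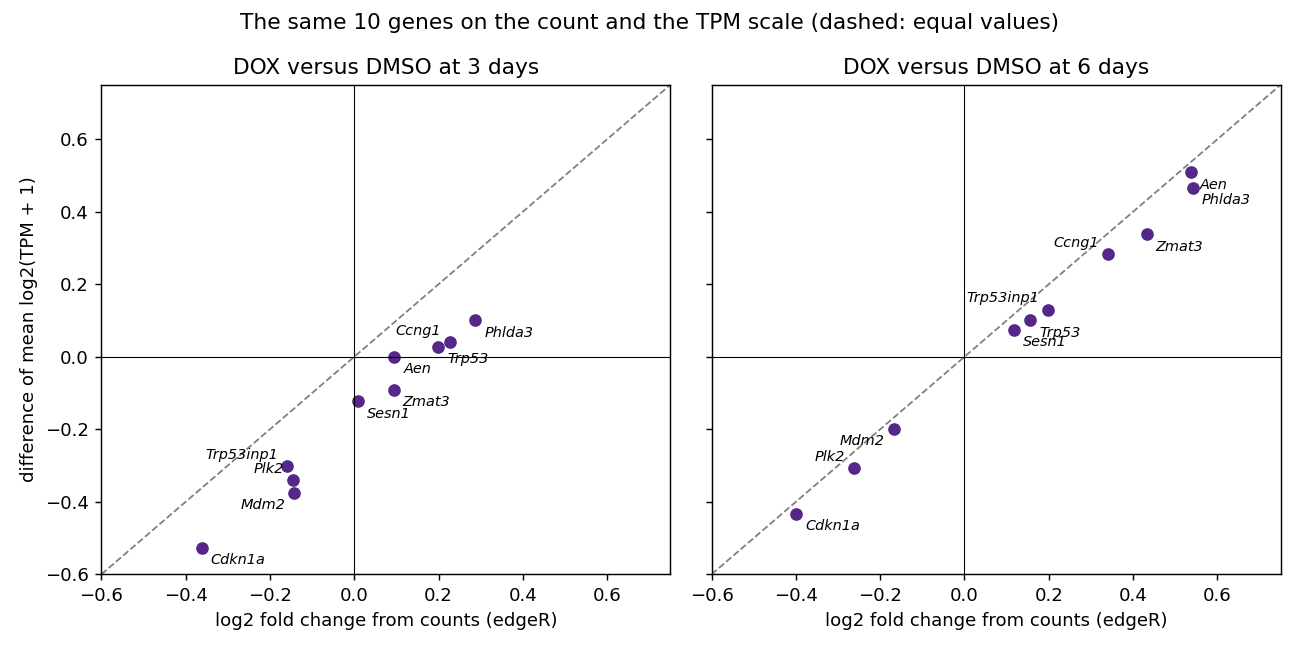
Log2 fold change from counts (x axis) against the difference of mean log2(TPM + 1) (y axis) for the 10 genes at 3 and 6 days, with a dashed line where the values are equal. The points lay below the line at 3 days, where the median of all genes on the TPM scale was -0.15, and closer to it at 6 days.

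Further genes of the pathway were read from 5 lists of 70 genes in all, of which 66 were tested. The lists were written from general knowledge with earlier results of these data known. Of 14 tested regulators of p53, such as *Mdm4*, *Atm*, *Chek2* and *Usp7*, 1 was called at 3 days and 0 at 6 days by glmTreat, against 12.5% and 21.6% of all tested genes. At 6 days DESeq2 and limma also called 0, and none had an unadjusted p under 0.05 by glmTreat without the offset for length and GC. Their median log2 fold change at 6 days was -0.05. The 1 was *Rchy1*, a ubiquitin ligase that acts on p53 and is itself induced by it, which was higher by 0.42 at 3 days (edgeR, adjusted p = 0.0243) and had 0.28 at 6 days (adjusted p = 0.462). DESeq2 and limma on log2(TPM + 1) did not call it (adjusted p = 0.145 and 1), nor did edgeR without replicate 2 or 4 of DMSO or replicate 3 of DOX at 3 days (adjusted p up to 0.0990). With the length and GC offset edgeR called *Rchy1* at 6 days, at 0.35 (adjusted p = 0.0469), but not at 3 days (adjusted p = 0.0736).

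Of 12 tested arrest and repair targets, 3 rose and 3 fell at 6 days, with a median of 0.29, and 2 rose and 2 fell at 3 days. Of all tested genes 10.0% rose and 11.6% fell at 6 days, and 5.30% and 7.22% at 3 days. *Sesn2*, a sestrin that p53 and nutrient stress induce, rose by 0.73 (edgeR, adjusted p = 6.89e-05), *Ercc5*, a nucleotide excision repair nuclease, by 0.67 (adjusted p = 2.54e-06) and *Ddb2*, which recognizes ultraviolet damage, by 0.42 (adjusted p = 0.0131). *Sfn*, which encodes the 14-3-3 sigma protein of the arrest before mitosis, fell by 0.69 in log2 at 3 days and by 1.18 at 6 days (edgeR, adjusted p = 2.63e-05 and 6.16e-10). *Plk3*, a polo-like kinase, fell by 0.55 (adjusted p = 0.00303), and *Btg2*, an antiproliferative gene, by 0.37 at 6 days (adjusted p = 0.0360) after 0.47 at 3 days (adjusted p = 0.00175), by edgeR. At 3 days the genes that rose were *Ddb2* and, named after its value was seen, *Gadd45a* at 0.46 (edgeR, adjusted p = 0.00460). DESeq2 did not call *Ddb2* or *Btg2* at 6 days (adjusted p = 0.126 and 0.201), and limma on log2(TPM + 1) did not call *Sesn2*, *Ddb2* or *Btg2* there (adjusted p = 0.0892, 0.570 and 0.239). At 3 days neither DESeq2 (adjusted p = 0.326) nor limma on log2(TPM + 1) called *Ddb2*. By edgeR its call there was also lost with at least 1 CPM in all 16 libraries (adjusted p = 0.0592). The same held with no filter beyond 1 count (0.163) and with only the 8 libraries compared (0.0567). It was lost too without replicate 1, 2 or 3 of DMSO or 3 or 4 of DOX at 3 days (edgeR, adjusted p up to 0.147). The call of *Btg2* at 6 days was lost without replicate 2, 3 or 4 of DMSO or 1 or 4 of DOX at 6 days (edgeR, adjusted p up to 0.0764). It was also lost with no filter beyond 1 count (edgeR, adjusted p = 0.324). Under the length and GC offset *Btg2* was not called at 3 days (edgeR, adjusted p = 0.0697), while *Sesn2* was, at 0.53 (edgeR, adjusted p = 0.00148).

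Among 10 tested cell death targets 2 rose and 0 fell at 6 days, with a median of 0.18, where 10.0% of all tested genes rose and 11.6% fell. *Fas*, the death receptor, went from a log2 fold change of 0.02 at 3 days (adjusted p = 1) to 1.41 at 6 days (adjusted p = 8.06e-07) by edgeR, the largest size among the named pathway genes. *Tnfrsf10b*, the receptor for TRAIL, rose by 0.37 at 6 days (edgeR, adjusted p = 0.0322), a call that DESeq2 and limma on log2(TPM + 1) did not make (adjusted p = 0.239 and 1) and that edgeR lost without replicate 2 of DMSO at 3 days, 4 of DMSO or 2, 3 or 4 of DOX at 6 days (adjusted p up to 0.0750). *Apaf1*, the scaffold of the apoptosome, fell by 0.44 at 3 days (edgeR, adjusted p = 0.0117) and had 0.07 at 6 days. Its call was lost in DESeq2 (adjusted p = 0.102), in limma on log2(TPM + 1) (adjusted p = 0.132), under the length and GC offset (edgeR, adjusted p = 0.199) and without replicate 3 of DOX at 3 days (edgeR, adjusted p = 0.0539). The genes of BAX, PUMA and NOXA (*Bax*, *Bbc3* and *Pmaip1*) were not called, with 0.28, 0.40 and -0.28 at 6 days (edgeR, adjusted p = 0.479, 0.116 and 0.434); these 3 were named after their values were seen.

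Of 15 metabolic and other targets 6 rose and 0 fell at 6 days, with a median of 0.40, and 0 rose and 2 fell at 3 days. The shares of all tested genes were 10.0% up and 11.6% down at 6 days, and 5.30% and 7.22% at 3 days. *Gdf15*, a secreted stress cytokine, rose by 0.82 (edgeR, adjusted p = 1.94e-05), *Ptp4a3*, a phosphatase, by 0.69 (adjusted p = 4e-05) and *Ak1*, an adenylate kinase, by 0.69 (adjusted p = 0.0250). *Gdf15* and *Sesn2* are also known targets of the integrated stress response. With the length and GC offset *Ptp4a3* was called at 3 days too, at 0.53 (edgeR, adjusted p = 0.00249). *Ak1* was not called by DESeq2 or limma on log2(TPM + 1) (adjusted p = 0.206 and 0.389), nor by edgeR without replicate 1, 3 or 4 of DMSO or 3 or 4 of DOX at 6 days (adjusted p up to 0.0954). *Cd82*, a tetraspanin, fell by 0.46 at 3 days (edgeR, adjusted p = 0.00445) and had -0.24 at 6 days. *Abcb1a*, a drug efflux pump, fell by 0.63 at 3 days (edgeR, adjusted p = 0.0427) and had -0.43 at 6 days. The call of *Abcb1a* was lost in DESeq2 and limma on log2(TPM + 1) (adjusted p = 0.488 and 1), under the length and GC offset (edgeR, adjusted p = 0.0685) and by edgeR without replicate 2, 3 or 4 of DMSO or 1, 2 or 4 of DOX at 3 days or 2 of DOX at 6 days (adjusted p up to 0.109).

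The last list held 15 proliferation genes that p53 is known to lower through p21. Of these, 0 rose and 12 fell at 6 days, with a median of -0.56, where 10.0% of all tested genes rose and 11.6% fell. At 3 days 0 rose and 2 fell, where 5.30% and 7.22% of all tested genes did. In CPM at 6 days 14 of the 15 were separated downward and 1 upward, against 20.9% and 22.1% of all tested genes. The highest log2 fold change in the list was 0.26 at 6 days. *Mki67*, the proliferation marker, fell by 0.82 at 3 days and 1.26 at 6 days (edgeR, adjusted p = 5.98e-06 and 1.27e-09). *Top2a*, the topoisomerase of dividing cells, fell by 0.42 and 0.78 (adjusted p = 0.0159 and 4.4e-08), and *Ccna2*, cyclin A2, had -0.33 at 3 days (adjusted p = 0.172) and fell by 0.76 at 6 days (adjusted p = 8.88e-09), by edgeR. *Top2a* at 3 days was not called by limma on log2(TPM + 1) or log2(TPM + 0.1) (adjusted p = 0.0711 and 0.0584), with no filter beyond 1 count (edgeR, adjusted p = 0.0563) or without replicate 2 of DOX at 3 days (edgeR, adjusted p = 0.0622). Transcript of *Cdkn1a*, the inhibitor, and transcripts of the 12 cycle genes that fell were thus lower in the same DOX libraries at 6 days. Whether the falls are linked was not tested.

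**Figure D5:**
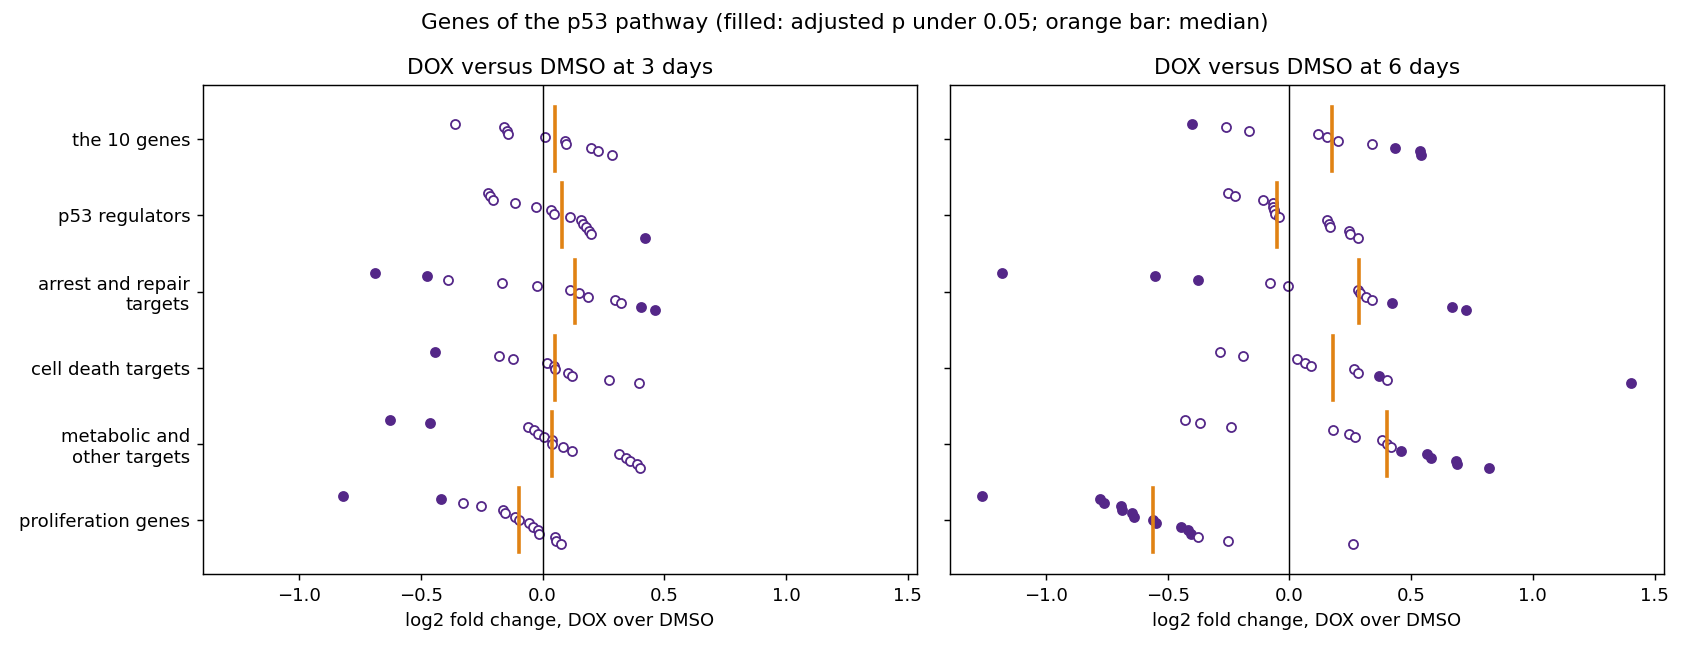
Log2 fold change of DOX over DMSO (x axis) for each tested gene of the 10 and of the 5 further lists at 3 days (left) and 6 days (right), filled where called, with an orange bar at the median of each list. Of the 15 proliferation genes 12 were filled to the left of 0 at 6 days, and the metabolic targets had 6 filled points to the right.

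The genes whose pattern over the 16 libraries was most like that of 3 members were found by the root mean square difference of centred log2 CPM, over 13233 other genes. For *Trp53* they were *Chtop*, *Entr1* and *Srd5a3*, with differences of 0.0411, 0.0449 and 0.0512 where the median gene had 0.209. For *Mdm2* they were *Ss18*, *Tmem135* and *Mcm4*, at 0.0415, 0.0424 and 0.0481 against a median of 0.211. For *Cdkn1a* they were *Gsn*, *Scin* and *Ripk4*, at 0.0623, 0.0643 and 0.0691 against 0.283. None of the 9 was among the members or the further lists. They were chosen for the smallest differences, so values under the median were fixed by the choice. The SD of log2 CPM over the 16 libraries was 0.108 for *Trp53*, 0.095 for *Mdm2* and 0.213 for *Cdkn1a*, so a gene that hardly varied would also lie under the median. Shared regulation was not tested.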

How the data were processed

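Polyadenylated RNA of 16 mIMCD3 libraries was sequenced by the authors as read pairs of 75 bases from a directional kit, aligned to GRCm38.p6 with STAR 2.6.0c and quantified with salmon. The deposited values were an unnormalized estimated count per gene, with fractions, and TPM, in which the authors also accounted for transcript length. Whether reads were counted by strand is not given in the sources used here. No column was left without a sample.

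Groups came from the labels. Fractions in the estimated counts were rounded off, tested genes had 1 CPM or more in 4 or more libraries, and libraries were scaled by TMM. A robust quasi-likelihood model of the 4 group means was fitted with edgeR 4.0.16 in R 4.3.3, since a common fit of all 16 libraries estimates the spread better than 8 would. DOX was compared with DMSO at each time, and DMSO between times, by glmTreat at 1.2-fold, and the difference of the DOX effects by glmQLFTest. Tests were two-sided, with Benjamini-Hochberg adjustment over the 13234 genes and a limit of 0.05. The SE is the size of the log2 fold change divided by the square root of the F statistic. Low detection was set at 3 counts, 0.125 to 0.177 CPM, which covers counting error only, and all 10 genes exceeded it. Calculations were tested on simulated counts.

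Named were all 10 members, up to 3 rises and 3 falls of greatest size at 6 days among each further list's called genes, and the 3 genes nearest in pattern to *Trp53*, *Mdm2* and *Cdkn1a*. Members and lists were chosen with earlier results of these data known. Of the 70 listed genes, *Trp63*, *Trp73*, *Rprm* and *Eda2r* were too low to test. Alternatives were RLE scaling, DESeq2 1.42.0, limma 3.58.1 on log2(TPM + 1) or log2(TPM + 0.1), no fold threshold, other filters, no robust estimation, a replicate block, the 8 libraries of a comparison alone and each library left out. An offset for transcript length and GC content, by splines with 5 degrees of freedom, was added after the data were seen.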

Additional observations from a re-analysis of the deposited data

Results flagged for a closer look

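In 1 of 40 groups of 4 libraries (10 genes in 4 groups), a single library stood far from the other 3 by Dixon's criterion. It was *Zmat3* in DMSO at 3 days, where replicate 1 had 35.5 CPM and the others 36.9 to 37.2 CPM. Chance alone picks out about 1 group in 20, and the gap is small beside the level.

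The DOX effects at 3 and 6 days differed by the edgeR test of the difference, 6 minus 3 days in log2, for *Aen* at 0.44 (adjusted p = 0.00414) and *Zmat3* at 0.34 (adjusted p = 0.0248). Among the named genes of the further lists, the difference was upward for *Fas* at 1.39, *Apaf1* at 0.51, *Gdf15* at 0.46, *Sesn2* at 0.43, *Ercc5* at 0.35 and *Tnfrsf10b* at 0.27 (adjusted p from 0.00063 for *Fas* to 0.0283 for *Sesn2*). It was downward for *Sfn* at -0.49, *Mki67* at -0.44, *Ccna2* at -0.43 and *Top2a* at -0.36 (adjusted p from 0.000723 for *Ccna2* to 0.0140 for *Mki67*). For *Apaf1* the value at 3 days was -0.44 and that at 6 days 0.07. The genes of the further lists were named by their size at 6 days among called genes. That choice favours a difference between the times, so these values do not stand for the lists. Of all tested genes 17.0% were called for the difference, 7.44% upward and 9.58% downward.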

How the results depend on the processing

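Precision was least for *Sesn1*, with 140 to 219 counts per library. Of the 10 members, 0 were called at 3 days, but 6 without the fold threshold and 1 (*Cdkn1a*) with the length and GC offset, and 0 to 1 with a library left out. At 6 days 4 were called, but 2 by DESeq2 (*Phlda3* and *Aen*), 0 by limma on TPM with either pseudocount or without a filter, 8 without the threshold, and 2 to 4 with a library left out. The lowest, 2, came without replicate 1 of DMSO at 6 days. With the length and GC offset 4 were called higher and 1 lower at 6 days. For the difference between times 2 were called, but 0 by limma on TPM and 0 with a 1.2-fold threshold. It was 4 with no filter beyond 1 count, 3 with the length and GC offset, and 1 to 3 with a library left out. The call of *Zmat3* was lost without replicate 3 or 4 of DOX at 3 days (adjusted p = 0.0627 and 0.0565) or replicate 4 of DOX at 6 days (0.0501). Between the times in DMSO 0 were called, and 0 with any library left out. Without the threshold it was 1, where 62 of the 13234 tested genes were called. The causes were not tested. The adjusted p of *Cdkn1a* at 6 days ran from 0.00361 to 0.0594 with a library left out.

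Equally numbered libraries deviated from their group means with r from -0.433 to 0.178, and 1 of 16 pairs passed 0.1. With 4 libraries per group, such values cannot settle whether the numbers pair the libraries. With the replicate block, 1 of 10 members was called for the difference between times in place of 2 (*Zmat3* was just over the limit, with 0.34), and the block moved the counts of members called in the other comparisons not at all, with 4 at 6 days and 0 at 3 days. Of the named genes of the further lists, the block ended the call of *Abcb1a* at 3 days (edgeR, adjusted p = 0.067).

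Among the named genes, directions turned at 3 days only. *Sesn1* had -0.12 and -0.16 by limma with pseudocounts of 1 and 0.1, -0.0019 with at least 1 CPM in all 16 libraries, and -0.092 to 0.0613 with a library left out. *Zmat3* had -0.0905 and -0.11 by limma, *Aen* -1.52e-05 with a pseudocount of 1, and *Tnfrsf10b* -0.0938 and -0.0992. *Fas* had -0.005 by limma, -0.11 with the offset and -0.0468 to 0.13 with a library left out. *Ak1* had 0.0052 under the block and -0.16 to 0.0735 with a library left out.

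All tested genes called numbered 1658 at 3 days and 2856 at 6 days, and 1019 and 1962 by DESeq2, 636 and 1238 by limma on log2(TPM + 1), and 5982 and 6702 without the threshold. For the difference between times 2252 were called, 568 by limma and 183 with a 1.2-fold threshold, and the share upward was 43.7%, or 55.4% with no filter beyond 1 count.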
